A study of Salix linearistipularis with 24 samples.

Results

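Roots of female plants of the dioecious willow *Salix linearistipularis* were set against roots of male plants after 6 h in 100 mM NaCl. The comparison rested on 6 of the 24 RNA-seq libraries of the series, 3 from female and 3 from male roots. The other 18 libraries came from female and male roots after 12 and 24 h in the same solution and from control roots kept in water, 3 libraries in each group. All plants were hydroponic cuttings of wild trees, taken from annual shoots. The sample labels describe 1 female and 1 male individual propagated to cuttings, whereas the methods describe trees of several populations and independent experiments. If each sex was 1 plant, sex and individual cannot be told apart, and p-values then measure only the spread between these libraries, which may be technical. Levels were FPKM (fragments per kilobase of transcript normalised for library size), and the contigs of an assembly cluster (CL number) were summed to 1 gene, next to single unigenes (Unigene number). Of 139844 genes, 53734 had at least 1 FPKM in at least 3 of the 6 libraries and were tested. The sources used here name no root markers by transcript number, so the labelled tissue was not checked against them, and in bulk roots fewer cells of a type and less RNA per cell cannot be told apart.

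A sudden rise of external NaCl draws water from root cells, lets Na+ into the cytosol and raises reactive oxygen species. *NHX* antiporters exchange Na+ or K+ for protons across vacuolar, endosomal and plasma membranes, PIP aquaporins let water pass the plasma membrane, ascorbate peroxidases (APX) remove H2O2 with ascorbate, and ferritins store iron. WRKY33 and MYB proteins are transcription factors of stress responses, small heat shock proteins (HSPs) hold unfolding proteins in solution, and the proteasome degrades tagged proteins. The study drew 157 genes of these and related families from these same samples, so their direction is not independent evidence.

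The 3 female libraries were close to each other, whereas the 3 male libraries were not. Between female libraries, 3.4% to 3.56% of the tested genes were 2-fold apart or more on the log2(FPKM + 0.5) scale. Between male libraries this share was 36.6% to 44.8%, and between a female and a male library it was 53.1% to 57.8%. In clusters with at least 10 FPKM, the most abundant contig differed in 10.9% to 11% of clusters between female libraries, in 52.1% to 55.8% between male libraries, and in 50.7% to 54.2% between a female and a male library. The range of a gene over the female libraries was narrower than that over the male libraries for 46046 genes (85.7%), with a median range of 0.30 in female and 1.34 in male roots on the log2 scale. Over all 24 libraries, each female library was nearest to another female 6 h library (r = 0.967 across 95202 genes, which are not independent replicates). Male replicates 1 and 2 were nearest to male 24 h libraries (r = 0.79 and 0.814), and male replicate 3 was nearest to male replicate 1 (r = 0.762).

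Neither the table nor the methods give read numbers. The sum of FPKM was 773111 to 778064 in female and 663314 to 743637 in male libraries, and the depth of the 6 libraries relative to female replicate 1, estimated from the commonest ratio between low values, lay between 0.895 and 1.0. At least 1 FPKM was reached by 54995 to 55445 genes in female libraries and by 39185, 45374, and 47297 genes in male replicates 1, 2, and 3. Of the 65731 genes that reached 1 FPKM in any female library, 69.7% did so in all 3, against 33% of the 70704 genes that did so in any male library. A gene low in 1 male library may fail to differ against all 3 in the direction of lower levels in female roots. A gene high in 1 male library may likewise fail to do so in the direction of higher levels. The part of this spread in the counts of genes was not tested.

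More genes had higher than lower levels in female roots at 6 h. The limma fit of the 6 libraries called 16272 genes higher in female roots (30.3% of those tested) and 2610 lower (4.86%), with 0.05 as the limit of the adjusted p and 1 as that of the log2 ratio in either direction. The median log2 ratio (female over male) of all tested genes was 0.583, 0.443 after scaling by the median of ratios, 0.16 with the level filter over all 24 libraries, and 0.129 with no filter. A gene with 1 FPKM in each library of 1 sex passed the filter whatever its level in the other sex. With no filter, 17962 genes were called higher and 3008 lower of 126886. A difference was said to hold against each male library where the nearest libraries of the sexes were at least 2-fold apart on the log2(FPKM + 0.5) scale. It held for 12612 genes with higher levels in female roots (23.5%) and for 1786 with lower levels (3.32%). Of these, 12590 and 1773 passed the limma test, which used the same values and is no separate support. There were 646 genes up to 0.1 log2 units inside this limit on the higher side and 631 up to 0.1 outside it, and 144 inside and 147 outside on the lower side. Without any fold limit, the female libraries stood above all male libraries for 20827 genes (38.8%) and below all of them for 4974 (9.26%).

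The excess of higher levels in female roots was found against each male library taken alone. Among genes with at least 1 FPKM in all female libraries or in that male library, the female libraries were all at least 2-fold above male replicate 1 for 23082 genes and all at least 2-fold below it for 10268. The counts were 19305 and 14414 for male replicate 2, and 20821 and 15399 for male replicate 3. The share that held higher in female roots fell with the mean level over the 6 libraries. At low means the level filter bears on these shares, since a gene could pass it through the 3 libraries of 1 sex alone. A mean below 1 FPKM then leaves little room for the remaining libraries. The part of the filter in this trend was not tested. Below 1 FPKM, 44.2% held higher and 3.77% lower, and at 1 to 3 FPKM 30.4% and 4.07% did. These shares were 18.2% and 3.43% at 3 to 10 FPKM and 8.87% and 1.71% at 10 to 30 FPKM. They were 6.65% and 1.34% at 30 to 100 FPKM. Of the 1214 genes with a mean of at least 100 FPKM over the 6 libraries, 3.46% held higher and 0.577% lower in female roots.

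Of the 157 listed genes, 112 were tested, 15 were called higher in female roots and 1 lower, against 30.3% and 4.86% of all genes. Their median log2 ratio was 0.18, and that of all genes was 0.58 with this filter and 0.129 with none. Differences held against each male library for 7 listed genes, all with higher levels in female roots, and for 0 with lower levels, where 23.5% and 3.32% of all genes held. These shares of all genes were not matched to the levels of the listed genes, although the share held higher fell with level. The nearest listed gene inside the limit was Unigene26736, whose nearest libraries were 1.35 apart on the log2 scale, and the nearest outside it was CL17907, at 0.89. Without male replicates 1, 2, and 3 in turn, 13, 13, and 19 listed genes held higher in female roots, and 2, 0, and 1 held lower.

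The 7 genes encode an aquaporin, 2 ascorbate peroxidases, 2 annexins, a proteasome subunit, and an ATP synthase subunit. They were picked by the same values that the fit tested, so their p-values are no separate support. The aquaporin gene Unigene7100, a PIP2 water channel of the plasma membrane, had 64.7, 66.5, and 63.9 FPKM in female roots, against 8.48, 23.4, and 13.1 FPKM in male roots. It was the most abundant of the 7 genes, and all female libraries were at least 2.73-fold above the highest male library (log2 ratio 2.20 ± 0.39 (SE), adjusted p = 0.00424). The cytosolic APX gene Unigene9983 had 11.3, 11.4, and 11.3 FPKM in female roots, against 0.09, 0.2, and 0.57 FPKM in male roots (log2 ratio 3.96 ± 0.37 (SE), adjusted p = 0.0003). The gene Unigene29971, named for APX3, a peroxidase of the peroxisomal membrane in *Arabidopsis*, had 3.12, 2.32, and 2.46 FPKM in female roots, against 0.24, 0, and 0 FPKM in male roots (log2 ratio 2.45 ± 0.25 (SE), adjusted p = 0.000439). Female levels of both APX genes were several times those of every male library, although Unigene29971 stayed at low levels in both sexes.

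Annexins bind membranes in the presence of Ca2+. The annexin D4 gene CL17084 had 8.67, 7.10, and 10.2 FPKM in female roots, against 1.35, 0.39, and 0.22 FPKM in male roots (log2 ratio 3.10 ± 0.46 (SE), adjusted p = 0.00196), and the annexin D5 gene Unigene26736 had 4.84, 5.41, and 4.64 FPKM in female roots, against 1.51, 0, and 0.83 FPKM in male roots (log2 ratio 2.31 ± 0.56 (SE), adjusted p = 0.0174). The call of Unigene26736 was lost whichever female library was left out, where its adjusted p was 0.0709 to 0.0765. The proteasome gene Unigene51500, for a beta type-6 subunit of the catalytic core, had 14.5, 14.5, and 14.3 FPKM in female roots. It was listed at 0 in male replicates 1 and 2 and had 0.95 FPKM in male replicate 3 (log2 ratio 4.39 ± 0.50 (SE), adjusted p = 0.000649). The gene Unigene68158, for the delta' subunit of the mitochondrial ATP synthase, had 21.8, 22.2, and 21.3 FPKM in female roots. In male roots it had 0.44, 0, and 4.49 FPKM, so that male replicate 3 stood apart from the other male libraries (log2 ratio 4.07 ± 0.82 (SE), adjusted p = 0.00793).

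**Figure D1:**
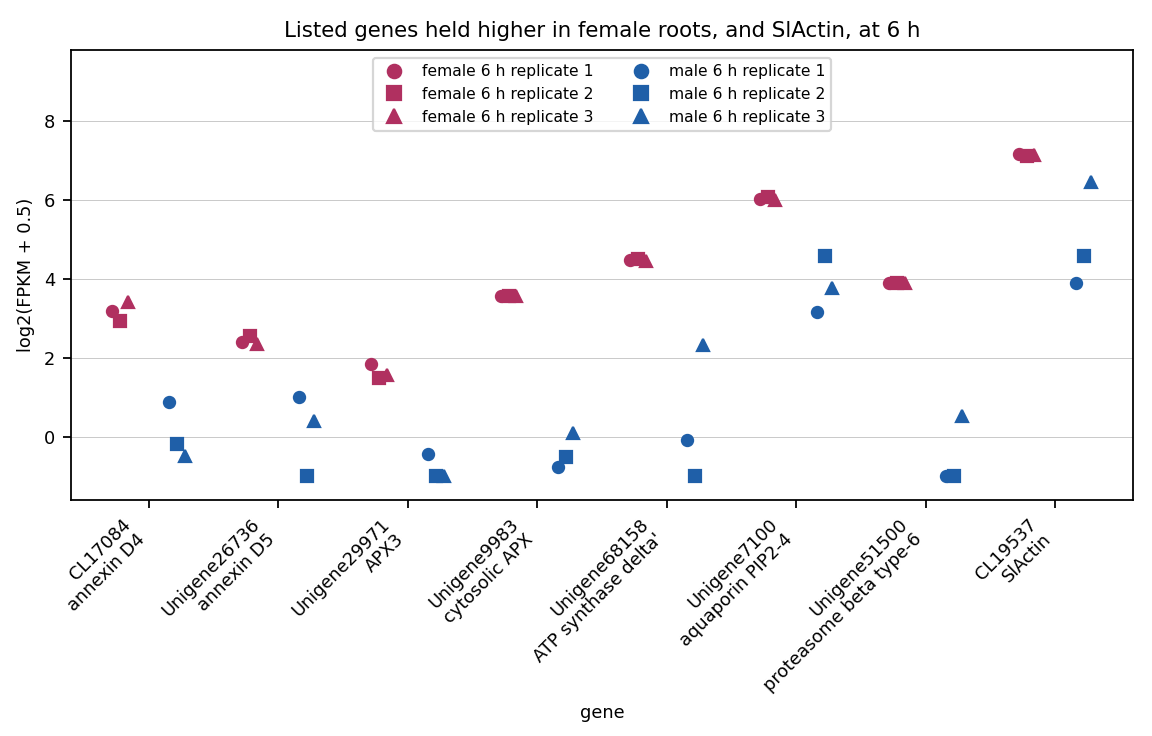
Level of each gene in each library, as log2(FPKM + 0.5) on the y axis, for the 7 listed genes that held higher in female roots and for SlActin, with female libraries to the left of male libraries and 1 marker shape for each replicate. The female points of a gene lie close together, at 63.9 to 66.5 FPKM for Unigene7100, while the male points of Unigene68158 run between 0 and 4.49 FPKM. SlActin has 1 male point, replicate 3, at 87.3 FPKM, near the female points.

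The calls of single listed genes depended on which libraries entered the fit. Besides the 16 listed genes, *SlActin* passed the test, which gave 17 calls. Of these, 7 were kept in each of the 6 fits that left out 1 library, namely those of CL17084, Unigene29971, Unigene50175, Unigene51500, Unigene68158, Unigene7100, and Unigene9983. The other 10 were lost whichever female library was left out, and 9, 11, and 17 of the 17 calls were kept without male replicates 1, 2, and 3. Fits pooled the spread of both sexes, and the female spread was far narrower. For Unigene9983 the SE was 0.37 in the full fit and 0.49 to 0.51 without a female library, at log2 ratios of 3.95 to 3.96. A loss without a female library thus does not single out that library. Here and below, p-values without a male library lean more on the narrow female spread.

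*SlActin* (CL19537), an actin gene of the cytoskeleton that served the study as the reference of its qPCR, was itself higher in female roots, with 143, 139, and 141 FPKM in female roots, against 14.4, 23.5, and 87.3 FPKM in male roots (log2 ratio 2.17 ± 0.63 (SE), adjusted p = 0.0362). The male libraries covered a 6.08-fold range, and the nearest libraries of the sexes were 1.59-fold apart, so the difference did not hold by the 2-fold limit. Scaling by the median of ratios gave a log2 ratio of 2.01 with an adjusted p of 0.0426. The call was lost with no level filter (adjusted p = 0.0659) and with the filter over all 24 libraries (adjusted p = 0.0939). The call was lost in 5 of the 6 fits without 1 library, with an adjusted p of 0.0825 without male replicate 1, 0.0992 without male replicate 2, and 0.111 to 0.126 without a female library.

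All 4 tested proteasome genes of the 5 listed were called higher in female roots, against 30.3% of all genes, and their median log2 ratio was 2.37, against 0.58 for all genes. Each had its highest male level in replicate 3. The gene CL2133, for a beta type-4 subunit, had 19.2, 18.1, and 20.1 FPKM in female roots, against 0.95, 2.08, and 10.01 FPKM in male roots (log2 ratio 2.53 ± 0.71 (SE), adjusted p = 0.0316). The second beta type-6 gene, CL5653, had 5.56, 6.8, and 6.35 FPKM in female roots, against 0.68, 1.13, and 3.26 FPKM in male roots (log2 ratio 1.80 ± 0.50 (SE), adjusted p = 0.0296), and CL2954, for the non-ATPase regulatory subunit 14 of the 26S particle, a deubiquitinase, had 11.5, 12.8, and 15.6 FPKM in female roots, against 0.97, 1.75, and 7.56 FPKM in male roots (log2 ratio 2.20 ± 0.64 (SE), adjusted p = 0.0364). The summed level of the 4 genes was 50.7, 52.2, and 56.4 FPKM in female roots, against 2.6, 4.96, and 21.8 FPKM in male roots. The calls of CL2133, CL5653, and CL2954 were kept only without male replicate 3, and their adjusted p was 0.0558 to 0.145 in the other 5 fits without 1 library. Scaling by the median of ratios kept all 4 calls. With the level filter over all 24 libraries, the calls of CL2133, CL2954, and CL5653 were lost (adjusted p = 0.081, 0.0852, and 0.054). With no filter, those of CL2133 and CL2954 were lost (adjusted p = 0.0564 and 0.0627).

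The proteasome genes, Unigene7100, and Unigene68158 share a further property, since the protein nearest to each in the study's annotation came from a plant outside the willow family Salicaceae (*Quercus suber*, or *Triticum urartu* for Unigene7100). Of 22 listed genes with a nearest protein from outside Salicaceae, 15 were tested, 8 were called higher in female roots and 1 lower (limma, unadjusted p under 0.05 for 11 and 1), against 30.3% and 4.86% of all genes, and their median log2 ratio was 1.80. Of 97 tested genes with a nearest protein from Salicaceae, 7 were called higher and 0 lower (limma, unadjusted p under 0.05 for 13 and 0), with a median of 0.13. The summed level of the 15 genes was 344, 351, and 343 FPKM in female roots, against 70.3, 150.0, and 202 FPKM in male roots. All female libraries stood above all male libraries for 10 of the 15, against 38.8% of all genes. They stood below all of them for 2, the *NHX* gene CL3276 and Unigene73076, against 9.26% of all genes. Among them were CL17907, for a glycine-rich RNA-binding protein, whose nearest protein came from the oomycete *Aphanomyces astaci*, and Unigene50175, for a polyadenylate-binding protein (*Nicotiana tabacum*). CL17907 had 9.34, 8.62, and 8.57 FPKM in female roots, against 2.18, 4.40, and 1.02 FPKM in male roots (log2 ratio 1.78 ± 0.47 (SE), adjusted p = 0.0255). Its call was lost whichever female library was left out, and without male replicate 1, with an adjusted p of 0.0589 to 0.107. Unigene50175 had 1.70, 1.11, and 1.45 FPKM in female roots, against 0.13, 0.24, and 0.4 FPKM in male roots (log2 ratio 1.35 ± 0.22 (SE), adjusted p = 0.00326). The cytochrome c oxidase 6b gene CL4869, of the last complex of the respiratory chain, had 94.3, 95.4, and 92.8 FPKM in female roots, against 10.4, 4.69, and 70.3 FPKM in male roots and did not pass the test (log2 ratio 2.58 ± 0.90 (SE), adjusted p = 0.068). The part of RNA from other organisms in these levels was not tested.

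The 1 listed gene called lower in female roots was Unigene73076, for a beta-8 chain of tubulin, the subunit of microtubules, with 1.55, 1.25, and 1.02 FPKM in female roots, against 3.95, 4.81, and 2.59 FPKM in male roots (log2 ratio -1.25 ± 0.37 (SE), adjusted p = 0.0392). Its nearest protein came from *Trifolium pratense*. All female libraries were below all male libraries, with 1.67-fold between the nearest, and the call was lost whichever female library was left out, and without male replicate 1, with an adjusted p of 0.0574 to 0.174.

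Among the ascorbate peroxidases, 25 of 45 listed genes were tested, 4 were called higher in female roots and 0 lower (limma, unadjusted p under 0.05 for 8 and 0), against 30.3% and 4.86% of all genes. All female libraries stood above all male libraries for 8 of the 25, against 38.8% of all genes. Besides the 2 genes described, CL1281, for a cytosolic APX, had 61.2, 58.7, and 61.1 FPKM in female roots, against 13.04, 17.5, and 42.7 FPKM in male roots (log2 ratio 1.47 ± 0.45 (SE), adjusted p = 0.0423). Its call was lost under median of ratios scaling, with an adjusted p of 0.0525, and was kept in 1 of the 6 fits without 1 library, that without male replicate 3. The APX3 gene Unigene21621 had 5.93, 3.67, and 4.35 FPKM in female roots, against 0.46, 2.0, and 1.35 FPKM in male roots (log2 ratio 1.62 ± 0.47 (SE), adjusted p = 0.0344), and its call was lost whichever female library was left out (adjusted p 0.0988 to 0.157). The most abundant APX gene, CL2500, for the cytosolic isoform 2, had 256, 256, and 245 FPKM in female roots, against 187, 368, and 174 FPKM in male roots. Its female levels lay within the male range, with a log2 ratio of 0.14 ± 0.34 (SE), adjusted p = 0.808. The gene with the widest male range among listed genes, Unigene17127, also for the cytosolic isoform 2, had 21.6, 21.5, and 18.9 FPKM in female roots, against a listed 0 in male replicate 1 and 50.9 and 72.0 FPKM in male replicates 2 and 3. Over all libraries its log2 ratio was 0.78 ± 1.82 (SE), adjusted p = 0.801, and without male replicate 1 it was -1.53 with an adjusted p of 0.00596.

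Of the 9 annexin genes tested of 10 listed, CL17084 and Unigene26736 were called higher and 0 lower (limma, unadjusted p under 0.05 for 2 and 0), against 30.3% and 4.86% of all genes. The most abundant, CL2944 for annexin D2, had 249.9, 242, and 250.4 FPKM in female roots, against 112, 299, and 201 FPKM in male roots, and its female levels lay within the male range (log2 ratio 0.39 ± 0.38 (SE), adjusted p = 0.509). CL20529, a more abundant annexin D5 gene than Unigene26736, had 60.7, 63.2, and 61.8 FPKM in female roots, against 41.7, 29.1, and 103.5 FPKM in male roots. Its log2 ratio was 0.30 ± 0.47 (SE), adjusted p = 0.694. The annexin D5 genes Unigene12580, Unigene18671, Unigene111087, and Unigene27291 were not called either. In the mitochondrial energy group, 8 of 10 genes were tested, with a median log2 ratio of 0.85, and 1 of them, Unigene68158, was called higher, against 30.3% of all genes. The most abundant of them, CL8420, for a mitochondrial phosphate carrier, had 117, 115, and 113 FPKM in female roots, against 193, 165, and 114 FPKM in male roots (log2 ratio -0.41 ± 0.27 (SE), adjusted p = 0.309). Another delta' gene, Unigene68160, had 21.1, 26.1, and 28.2 FPKM in female roots, against 1.75, 1.32, and 24.4 FPKM in male roots, so that male replicate 3 was within the female range and the other male libraries far below it (log2 ratio 2.44 ± 0.98 (SE), adjusted p = 0.103).

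The 5 *NHX* genes did not pass the test at 6 h (limma, unadjusted p under 0.05 for 0 of 5). Of all genes, 30.3% were called higher and 4.86% lower. The summed level of the 5 *NHX* genes was 87.1, 90.2, and 89.2 FPKM in female roots, against 90.7, 92.9, and 108 FPKM in male roots, so that the sums of the sexes were close and did not overlap. The table gives these genes by number alone. The study's qPCR primers for the gene with separated sexes and for the gene with the largest log2 ratio are therefore shown, written 5′ to 3′, since they tie the numbers to a transcript.
CL3276 forward: tggtttgaggatggtatcggag
CL3276 reverse: caatggcaagggcagtagtaga
Unigene43275 forward: gtcttatgcgtggtgctgtttc
Unigene43275 reverse: gactgtgtgagaaggggtgct

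The gene CL3276, for a sodium/hydrogen exchanger 1, had 22.3, 23.5, and 22.5 FPKM in female roots, against 29.3, 29.7, and 32.5 FPKM in male roots. Its nearest protein in the study's annotation came from *Hevea brasiliensis*, outside Salicaceae. All female libraries were below all male libraries, by 1.25-fold between the nearest, and the difference did not pass the test (log2 ratio -0.41 ± 0.22 (SE), adjusted p = 0.22). The contig that led this cluster was number 3 in all female libraries and in male replicate 2, and number 2 in male replicates 1 and 3. The most abundant *NHX* gene, CL9910, also an exchanger 1, had 27.8, 29.1, and 29.7 FPKM in female roots, against 25.2, 28.8, and 46.2 FPKM in male roots (log2 ratio -0.16 ± 0.30 (SE), adjusted p = 0.75). CL2217, for an exchanger 6, which acts in endosomes in *Arabidopsis*, had 17.1, 18.4, and 18.5 FPKM in female roots, against 11.8, 22.7, and 18.3 FPKM in male roots (log2 ratio 0.08 ± 0.31 (SE), adjusted p = 0.882). In both genes the female libraries lay within the male range.

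CL7345, for an exchanger 7, named SOS1 in *Arabidopsis*, where it moves Na+ out of the cell, had 16.9, 16.7, and 16.6 FPKM in female roots, against 23.1, 9.59, and 11.1 FPKM in male roots (log2 ratio 0.30 ± 0.38 (SE), adjusted p = 0.618). Male replicate 1 was above the female libraries and the other male libraries were below them. Unigene43275, for an exchanger 2, was low in both sexes, with 2.90, 2.61, and 2.04 FPKM in female roots, against 1.42 and 2.16 FPKM in male replicates 1 and 2 and a listed 0 in replicate 3 (log2 ratio 1.13 ± 0.65 (SE), adjusted p = 0.247). Its female and male levels overlapped, and the model of all 24 libraries, which pools the spread of tighter groups, called it with an adjusted p of 0.0143.

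The most abundant transcription factor genes had their highest level in male replicate 1. The *WRKY33* gene CL3639 had 1393, 1368, and 1400.2 FPKM in female roots, against 2835, 879, and 989 FPKM in male roots (log2 ratio 0.04 ± 0.47 (SE), adjusted p = 0.965). The *MYB13* gene CL2555 had 409.6, 400.4, and 416 FPKM in female roots, against 608, 257, and 125 FPKM in male roots (log2 ratio 0.60 ± 0.55 (SE), adjusted p = 0.483), and without male replicate 1 its log2 ratio was 1.19 with an adjusted p of 0.0418. Of 7 MYB genes tested, 5 were highest in male replicate 1 among male libraries, against at most 24.1% of all genes. The MYB gene that was called, Unigene12477, named for KUA1, a regulator of cell expansion in *Arabidopsis* leaves, did not follow them, with 44.4, 41.1, and 41.8 FPKM in female roots, against 5.74, 2.95, and 22.2 FPKM in male roots (log2 ratio 2.45 ± 0.67 (SE), adjusted p = 0.028). That call was kept in 1 of the 6 fits without 1 library, that without male replicate 3, and the adjusted p was 0.0533 to 0.105 in the others. Of the other KUA1 genes, Unigene43889 had 84.3, 80.5, and 83.7 FPKM in female roots, against 215.7, 75.0, and 82.9 FPKM in male roots. Its log2 ratio was -0.41 ± 0.43 (SE), adjusted p = 0.54. Unigene37971 had a log2 ratio of 0.53 ± 0.26 (SE), adjusted p = 0.172, and neither gene was called. The VQ motif gene CL12613, of a family that binds WRKY factors, had 329.9, 334, and 333 FPKM in female roots, against 475, 226, and 195.4 FPKM in male roots, again with male replicate 1 highest (log2 ratio 0.27 ± 0.37 (SE), adjusted p = 0.653). The kinase gene CL1315, named for SAPK1, a kinase of osmotic stress in rice, had 34.6, 30.02, and 32.1 FPKM in female roots, against 19.1, 20.9, and 19.6 FPKM in male roots. All female libraries were above all male libraries, by 1.43-fold between the nearest, and the difference did not pass the test (log2 ratio 0.68 ± 0.23 (SE), adjusted p = 0.0577).

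Small HSP genes moved with 1 male library. Of 20 listed genes, 15 were tested, and all 15 had their highest male level in replicate 1, against at most 24.1% of all tested genes. The summed level of the 15 genes was 359, 340, and 363 FPKM in female roots, against 1370, 262, and 227 FPKM in male roots. Male replicate 1 stood 1.96-fold to 18.2-fold above the female mean in these genes. Against male replicates 1, 2, and 3, the median log2 ratio of the female mean was -1.74, 0.46, and 1.23, where all genes had 0.87, 0.43, and 0.71. Thus the direction of the sex difference turned with the male library. The limma fit called 0 of 15 genes in either direction (unadjusted p under 0.05 for 0 genes), where 30.3% of all genes were called higher and 4.86% lower. The female levels lay within or overlapped the male range for all 15. Of all genes, 38.8% stood above all male libraries and 9.26% below all of them.

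The most abundant small HSP gene over the 6 libraries, CL17724, had 137, 131, and 135 FPKM in female roots, against 393, 124, and 97.5 FPKM in male roots (log2 ratio -0.32 ± 0.52 (SE), adjusted p = 0.708). CL697, chosen after its values were seen, had 94.6, 88.4, and 106 FPKM in female roots, against 526 FPKM in male replicate 1 and 50.1 and 80.9 FPKM in the other male libraries. Among tested small HSP genes, the widest male ranges were those of Unigene23301 and Unigene14279. Unigene23301 had 3.99, 4.19, and 3.91 FPKM in female roots, against 58.1, 2.79, and 0.41 FPKM in male roots (log2 ratio -0.31 ± 1.41 (SE), adjusted p = 0.901). Unigene14279 had 1.88, 1.71, and 1.83 FPKM in female roots, against 32.9, 2.89, and 0.1 FPKM in male roots (log2 ratio -0.82 ± 1.34 (SE), adjusted p = 0.71). Unigene17995, which was not tested because few libraries reached 1 FPKM, had at most 0.15 FPKM in female roots, against 34.2, 0, and 0.88 FPKM in male roots.

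**Figure D2:**
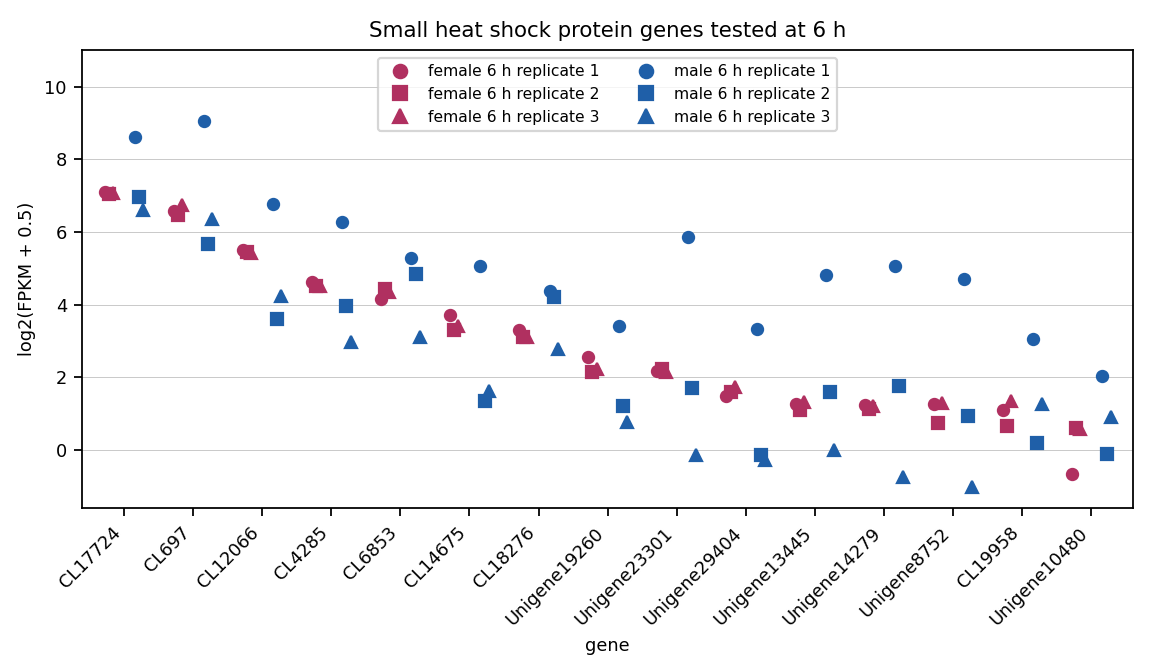
Level of the 15 tested small HSP genes in each library, as log2(FPKM + 0.5) on the y axis, with female libraries to the left of male libraries and 1 marker shape for each replicate, ordered by the female mean. Male replicate 1 (circles) is the highest male library in all 15 genes, at 393 FPKM in CL17724 and 32.9 FPKM in Unigene14279, while the female points lie within or overlap the range of the male points.

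Other families were led by another male library. The 3 tested genes of basic transcription factor 3, whose product binds nascent proteins at the ribosome, were all highest in male replicate 2. The gene CL18251 had 23.0, 23.0, and 19.8 FPKM in female roots, against 13.9, 40.3, and 10.98 FPKM in male roots, and the most abundant of the 3, CL3930, had 58.7, 61.3, and 62.2 FPKM in female roots, against 39.8, 129, and 60.8 FPKM in male roots (log2 ratio -0.16 ± 0.44 (SE), adjusted p = 0.833). The 3 tested beta-glucosidase genes, of enzymes that release glucose from glycosides, were all highest in male replicate 3, and CL19012 had 1016, 1037, and 1001 FPKM in female roots, against 909, 582, and 2865 FPKM in male roots (log2 ratio -0.17 ± 0.57 (SE), adjusted p = 0.86). No gene of either family passed the test in either direction (limma, unadjusted p under 0.05 for 0 of 3 in each), where 30.3% of all genes were called higher and 4.86% lower. Over all tested genes, 24.1%, 38.2%, and 37.7% had their highest male level in replicates 1, 2, and 3. Genes listed at 0 in all male libraries were counted for replicate 1, so 24.1% is an upper limit for it.

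The ferritin gene CL4009 had lower levels in all female than in all male libraries, with 136, 132, and 136 FPKM in female roots, against 190.1, 163, and 397 FPKM in male roots. The nearest libraries were 1.20-fold apart, and the difference did not pass the test (log2 ratio -0.78 ± 0.37 (SE), adjusted p = 0.164). The sugar transport protein 13 gene CL1787, for a transporter that takes up hexoses, had 709, 695, and 685 FPKM in female roots, against 1029.6, 619.6, and 1561 FPKM in male roots (log2 ratio -0.52 ± 0.37 (SE), adjusted p = 0.352). The pro-hevein gene CL13878, of a chitin-binding protein, had 200.4, 199, and 200.4 FPKM in female roots, against 69.8, 349.6, and 396 FPKM in male roots, so that male replicate 1 was far below and the other male libraries were above the female level (log2 ratio -0.09 ± 0.66 (SE), adjusted p = 0.938).

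The glutathione S-transferase gene CL4774 had 471, 462, and 469 FPKM in female roots, against 474, 528, and 113 FPKM in male roots, with male replicate 3 far below all other libraries (log2 ratio 0.62 ± 0.59 (SE), adjusted p = 0.505). The mitochondrial HSP70 gene CL4614 had 28.1, 26.8, and 27.7 FPKM in female roots, against 42.7, 31.5, and 12.0 FPKM in male roots (log2 ratio 0.12 ± 0.48 (SE), adjusted p = 0.888). Unigene3010, for cyanate hydratase, an enzyme that breaks down cyanate, had 3.05, 3.14, and 2.58 FPKM in female roots, against 0.06, 43.1, and 0.4 FPKM in male roots, and its level in male replicate 2 was 719-fold that in male replicate 1 (log2 ratio 0.29 ± 1.58 (SE), adjusted p = 0.919). In each of the 3 genes the female libraries lay within the male range.

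**Figure D3:**
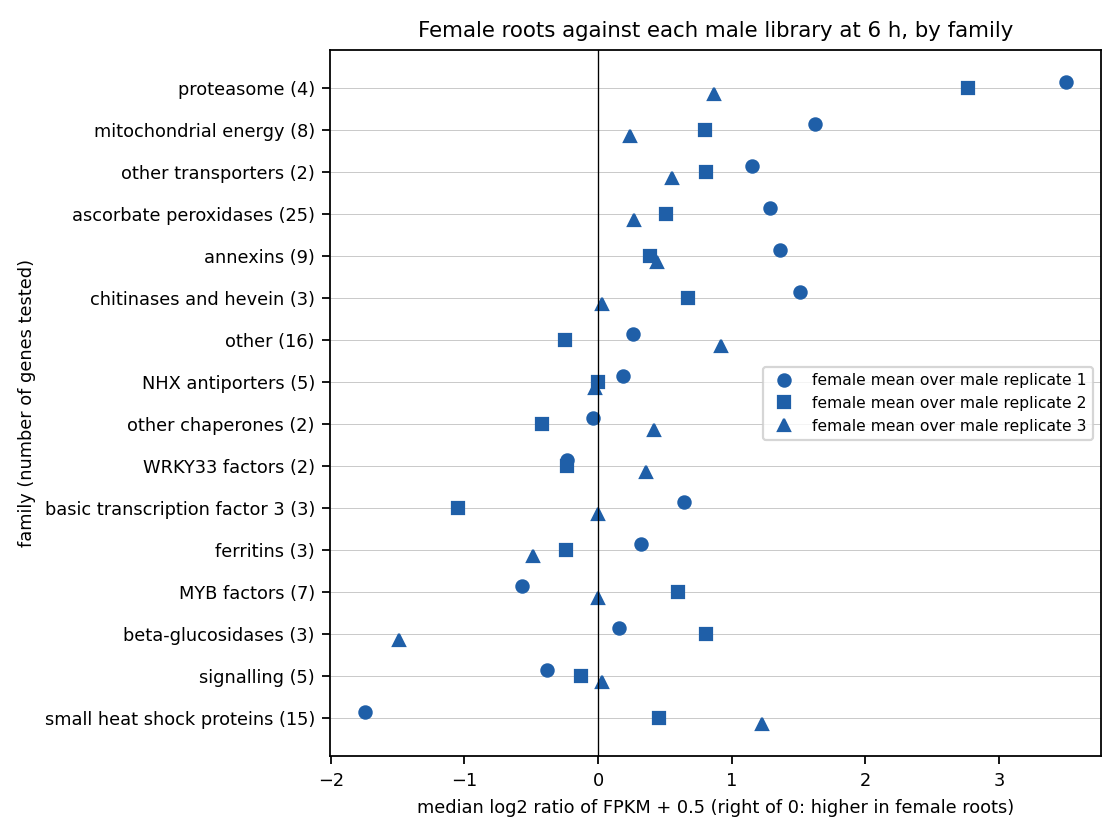
Median over the tested genes of each family (y axis, number of genes in brackets) of the log2 ratio of the female mean to male replicate 1 (circles), 2 (squares), and 3 (triangles), on the x axis, where values right of 0 are higher in female roots. Proteasome genes lie right of 0 against all 3 male libraries (3.50, 2.77, and 0.87), whereas small HSP genes lie at -1.74 against replicate 1 and at 1.23 against replicate 3.

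Of genes outside the lists, for which no annotation was used here, the 2 with the widest separation on each side are described next. Their adjusted p came from the same values that picked them. Unigene38229 had 289, 290.2, and 323 FPKM in female roots, against 0, 0, and 0.23 FPKM in male roots (log2 ratio 9.05 ± 0.28 (SE), adjusted p = 0.0002), and Unigene56880 had 208, 204, and 206 FPKM in female roots, against 0, 0, and 0.07 FPKM in male roots (log2 ratio 8.63 ± 0.25 (SE), adjusted p = 0.0002). Unigene54704 was listed at 0 in all female libraries and had 44.9, 493, and 20.01 FPKM in male roots (log2 ratio -7.27 ± 1.11 (SE), adjusted p = 0.00221). Unigene21194 was likewise listed at 0 in female roots and had 19.6, 159, and 45.9 FPKM in male roots (log2 ratio -6.73 ± 0.73 (SE), adjusted p = 0.000524). In 206 genes, all female libraries had at least 5 FPKM and all male 6 h libraries were listed at 0, and 111 of these were at 0 in all 12 male libraries of the series. The opposite was found for 19 genes, of which 3 were at 0 in all 12 female libraries. No listed gene was among them.

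Genes that held higher at 6 h had low median levels in female roots at the other points. These genes were chosen by their 6 h levels, so lower medians at the other points are no separate result. The same holds for the genes held lower, and medians of all tested genes were not set beside them. For the 12612 genes held higher, the median of the group means was 0.33 FPKM in female and 0 FPKM in male control roots, 3.31 and 0.123 FPKM at 6 h, 0.243 and 0.143 FPKM at 12 h, and 0.0767 and 0 FPKM at 24 h. For the 1786 genes held lower, it was 0.0733 FPKM in female and 0.325 FPKM in male control roots, 0.157 and 4.23 FPKM at 6 h, 0.0633 and 1.21 FPKM at 12 h, and 0.86 and 0.987 FPKM at 24 h. Most of the 12612 genes did not reach the level needed for a test at the other points, where 2673 in control roots, 4484 at 12 h, and 1453 at 24 h were tested. Of those tested in control roots, 72.9% held higher and 5.2% lower in female roots by the same limit, where 27.3% and 19.6% of all genes tested there did so. At 12 h, 41.5% held higher and 40.0% lower, against 26.9% and 31.1% of all genes, and at 24 h 59.6% and 5.78%, against 19.8% and 14.2%. A gene can pass the level filter through the libraries of 1 sex alone, so these shares are a description of the genes that passed.

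The 7 listed genes that held higher at 6 h did not share 1 course. They were picked by their 6 h levels, which also enter their differences between times. The p-values of those differences are therefore no separate support for a larger difference at 6 h. Unigene9983 was near 0 in female roots elsewhere, and at 12 h it had 0.0433 ± 0.0513 FPKM in female roots and 3.02 ± 0.44 FPKM in male roots (SD, n = 3 each), so that the sexes stood in the opposite order. The female minus male difference at 6 h exceeded that at 12 h by 6.65 ± 0.36 (SE), adjusted p = 5.6e-07 on the log2 scale. Among control roots, Unigene7100 had 1.58 ± 0.359 FPKM in female roots and 7.55 ± 0.515 FPKM in male roots (SD, n = 3 each). At 12 h, it had 3.97 ± 0.167 FPKM in female roots and 16.4 ± 0.881 FPKM in male roots (SD, n = 3 each). Its difference at 6 h exceeded that at 12 h by 4.12 ± 0.40 (SE), adjusted p = 1.21e-05. Against 24 h the change of the difference was 0.82 ± 0.42 (SE), adjusted p = 0.141, which did not pass. At 12 h, CL17084 had 0.927 ± 0.256 FPKM in female roots and 3.10 ± 0.673 FPKM in male roots (SD, n = 3 each), again in the opposite order, and its difference at 6 h exceeded that at 12 h by 4.43 ± 0.49 (SE), adjusted p = 2.82e-05.

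Unigene51500 and Unigene68158 were higher in female than in male roots on average at every point, and the difference was larger at 6 h than at 12 and 24 h. For Unigene51500 it exceeded that at 12 h by 3.10 ± 0.57 (SE), adjusted p = 0.000854, and that at 24 h by 3.99 ± 0.54 (SE), adjusted p = 0.000145. The low APX gene Unigene29971 had 1.01 ± 0.274 FPKM in female roots and 0.167 ± 0.0839 FPKM in male roots (SD, n = 3 each) at 12 h, and its difference at 6 h exceeded that at 12 h by 1.28 ± 0.34 (SE), adjusted p = 0.00829. Unigene26736 took another course, and at 24 h it had 11.9 ± 0.686 FPKM in female roots and 0.197 ± 0.0551 FPKM in male roots (SD, n = 3 each). Its difference was smaller at 6 h than at 24 h, by -1.84 ± 0.58 (SE), adjusted p = 0.026. Among control roots, *SlActin* had 361 ± 22 FPKM in female roots and 46.4 ± 12.8 FPKM in male roots (SD, n = 3 each). At 12 h, it had 56.0 ± 1.32 FPKM in female roots and 57.4 ± 1.67 FPKM in male roots (SD, n = 3 each). Its difference at 6 h exceeded that at 12 h by 2.20 ± 0.68 (SE), adjusted p = 0.0169.

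**Figure D4:**
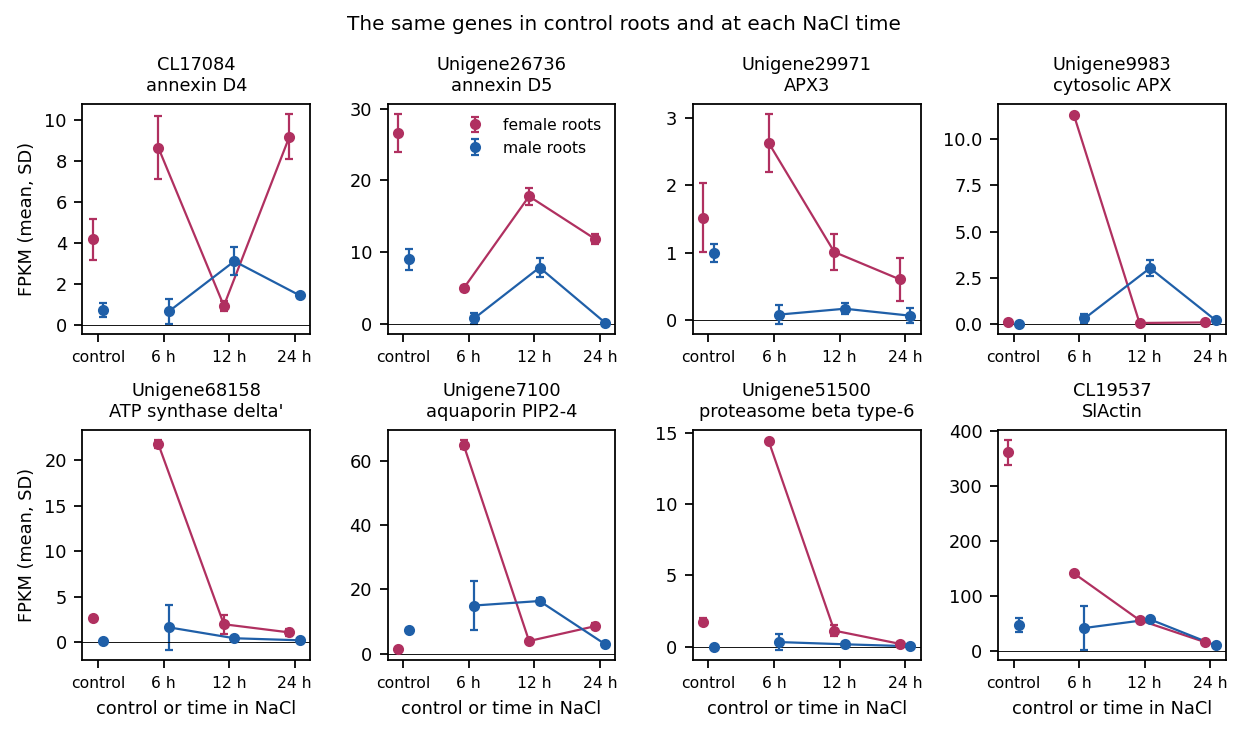
Mean FPKM with SD (y axis, n = 3 libraries for each point) of the 7 listed genes that held higher at 6 h and of SlActin in female and male roots, in control roots and after 6, 12, and 24 h in NaCl (x axis), with lines joining the NaCl times. Unigene9983, Unigene29971, Unigene68158, Unigene7100, and Unigene51500 have their highest female mean at 6 h (11.3, 2.63, 21.8, 65.0, and 14.4 FPKM), CL17084 has it at 24 h (9.17 FPKM), and Unigene26736 and SlActin have it in control roots (26.6 and 361 FPKM).

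Over the whole table, the female minus male difference differed between 6 and 12 h for 41490 of 76201 genes, being higher at 6 h for 35.8% and lower for 18.7% (limma, adjusted p at most 0.05 and absolute log2 difference at least 1). Between 6 and 24 h it differed for 25998 of 65817 genes, 26.5% higher and 13% lower at 6 h. Of the 112 listed genes tested at 6 h, 67 were called against 12 h and 26 against 24 h. Among small HSP genes, 13 of 15 were called against 12 h and 6 against 24 h, and among proteasome genes 4 and 3 of 4. These tests use the same 3 male 6 h libraries, whose spread is described above.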

How the data were processed

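Total root RNA was sequenced by the authors in 24 libraries, assembled with Trinity without a reference genome, and deposited in a single table of FPKM values (253209 contigs and single unigenes). The methods name RPKM, the table FPKM, and their aligner and quantifier were not given in sources used here. FPKM values were used without scaling. Contigs of a cluster were summed, and genes with at least 1 FPKM in at least 3 of the 6 libraries were tested as log2(FPKM + 0.5), which understates the ratios of genes with low levels. Fits used limma (version 3.58.1, R 4.3.3, moderated with a mean-variance trend) on the compared groups alone, since the spread of male 6 h exceeds that of other groups, with Benjamini-Hochberg adjustment over all genes tested. Differences of differences used the 12 libraries of both times. The fit was checked for recovery of set differences on simulated data with equal noise in all libraries. The data differ from this, since male libraries spread more than female libraries. Tables were handled with data.table (version 1.17.8), Python 3.11.15, numpy 2.4.6, and pandas 2.3.3, and figures with matplotlib 3.10.9.

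The members and gene lists were chosen with earlier results of these data known. Lists and family names came from the study's supplementary tables of salt and reactive oxygen genes, with their Swiss-Prot names and nearest species, and the primers from its primer table. Named genes were the *NHX* genes and *SlActin*, up to 2 genes of each family held in each direction with the largest gap, the most abundant gene of each family, the 5 listed genes with the widest male range, and 4 unlisted genes. The remaining listed genes that were called, CL697, CL1315, CL18251, CL4869, and Unigene68160 were named after their values were seen. So were the other annexin D5 and KUA1 genes.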

Additional observations from a re-analysis of the deposited data

Results flagged for a closer look

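The female minus male difference at 6 h was called different from that at a later NaCl time for the named genes below. The test was limma on the 12 libraries of both times. Of all genes, 41490 of 76201 were called against 12 h and 25998 of 65817 against 24 h. Some named genes were picked by their 6 h gap or male range, so their p-values are no separate support. Each value below is the difference at 6 h minus that at the later time on the log2(FPKM + 0.5) scale. Against 12 h, it was higher at 6 h by 6.65 in the APX gene Unigene9983, 1.28 in the APX gene Unigene29971, 4.43 in the annexin gene CL17084, 4.12 in the aquaporin gene Unigene7100, and 2.74 in the ATP synthase gene Unigene68158. It was higher by 3.10 in the proteasome gene Unigene51500, 3.48 in the proteasome gene CL2133, 2.20 in *SlActin* (CL19537), 2.87 in the *MYB13* gene CL2555, 1.57 in the VQ motif gene CL12613, and 1.27 in the ferritin gene CL4009. Among chaperones it was higher by 4.99 in Unigene14279, 4.95 in Unigene23301, 2.08 in CL17724, and 1.74 in CL4614.

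The *NHX* genes moved in both directions against 12 h, with 3.73 in Unigene43275 and 1.48 in CL7345, and with -1.17 in CL2217 and -1.18 in CL9910. The difference was lower at 6 h than at 12 h by the values -1.13 in the APX gene CL2500, -2.26 in the basic transcription factor 3 gene CL3930, -2.44 in the pro-hevein gene CL13878, and -1.0 in the phosphate carrier gene CL8420. The 4 unlisted genes had 7.05 in Unigene56880, 5.96 in Unigene38229, -9.46 in Unigene54704, and -8.94 in Unigene21194. Adjusted p of these 27 genes was between 2.86e-07 and 0.0277.

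Against 24 h, the difference was higher at 6 h by 4.24 in Unigene9983, 1.5 in Unigene29971, 2.94 in Unigene68158, 3.99 in Unigene51500, 1.5 in CL12613, 1.71 in CL17724, 8.46 in Unigene56880, and 7.62 in Unigene38229. It was lower, with -1.84 in the annexin gene Unigene26736, -1.57 in CL4009, -8.85 in the small HSP gene Unigene17995, -3.43 in Unigene54704, and -3.35 in Unigene21194. CL4009 thus stood higher against 12 h and lower against 24 h. Adjusted p of these 13 genes was between 4.27e-07 and 0.041.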

How the results depend on the processing

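The counts of genes higher in female roots (main value 16272) stayed within 1.5 times under all alternatives except contigs as separate features, which gave 25469 higher and 5383 lower. At an adjusted p of at most 0.01, 12112 were higher and 1631 lower, and the model of all 24 libraries gave 21523 and 3713. Without 1 library, 12344 to 18333 genes were higher and 1623 to 3101 lower, the lowest count coming without female replicate 3. No pairing by replicate number was seen, as the correlation of deviations of same-numbered libraries was -0.008 to 0.009. Female replicate 1 correlated best with male replicate 2 (0.012). Deviations among the close female libraries were small, so these values could not decide whether the numbers pair samples. With the replicate number as a block, 16621 genes were higher and 2342 lower at 6 h. The block gave 41191 calls against 12 h and 25327 against 24 h.

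Held differences numbered 20426 higher and 3779 lower with contigs as features, 5505 and 561 with nearest libraries 4-fold apart, and 20827 and 4974 with no fold minimum. Among listed genes these settings gave 25 higher and 11 lower, 4 and 0, and 25 and 4. Without 1 library, 13025 to 16678 genes held higher and 1932 to 2422 lower, and 7 to 19 listed genes held higher and 0 to 2 lower. Calls against 12 h numbered 43473 to 45138 without 1 male library and those against 24 h 29150 to 31462, and these 2 counts stayed within 1.5 times under the other alternatives too.

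Of the 36 named genes in the fit, 17 kept direction and call under every alternative. Scaling by the median of ratios turned the log2 ratio of CL2217 to -0.07, CL3639 to -0.12, CL2500 to -0.02, and CL4614 to -0.04, and a pseudocount of 1 turned that of Unigene3010 to -0.04. None of these was called. Leaving out 1 library, the log2 ratio changed sign within -0.17 to 0.28 for CL2217, -0.33 to 0.10 for CL9910, -0.27 to 0.57 for CL3639, -0.06 to 0.48 for CL2500, -0.54 to 0.30 for CL3930, -0.67 to 0.48 for CL19012, -0.89 to 0.35 for CL13878, and -0.10 to 1.01 for CL4774. It did so within -0.41 to 0.49 for CL4614, -0.71 to 0.29 for CL17724, -1.53 to 2.06 for Unigene17127, -0.88 to 2.27 for Unigene3010, -1.62 to 1.39 for Unigene23301, and -2.21 to 0.69 for Unigene14279. Calls of 17 genes (16 listed, and *SlActin*) fell to 10 with no filter or with the filter over all 24 libraries, 14 at a pseudocount of 0.1, 16 at a pseudocount of 1 and under scaling, and 15 with the replicate block. The causes were not tested. Without read numbers, the precision of low levels is unknown beyond the spread of the libraries.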
